A study of Mus musculus with 6 samples.

Results

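The MHC class II genes of the mouse, together with *Cd74* and *Ciita*, form a set of 10 genes that were chosen by symbol: *H2-Aa*, *H2-Ab1*, *H2-Eb1*, *H2-DMa*, *H2-DMb1*, *H2-DMb2*, *H2-Oa*, *H2-Ob*, *Cd74* and *Ciita*. All 10 had a row among the 39179 Ensembl gene identifiers of the expression table, and all 10 were among the 12785 genes that passed the filter on low values (at least 1 TPM in at least 3 pools). RNA-Seq was performed on germinal center (GC) B cells and on resting, or naive, B cells from Peyer's patches, gut-associated lymphoid tissue of the small intestine. GC cells were sorted as Fas+GL7+ B cells and naive cells as Fas-GL7- B cells. All cells came from female wild-type C57BL/6 mice aged 12 wk, with no treatment named in the labels, and each of the 3 GC and 3 naive replicates was a pool of 5 littermates, so that differences between single mice could not be seen. The deposited FPKM values (fragments per kilobase of transcript, scaled to the mapped fragments of a library) were rescaled to TPM, which sum to 1000000 in each pool and are corrected for transcript length and therefore allow levels to be compared between genes.

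MHC class II molecules are heterodimers of an alpha and a beta chain that carry peptides of internalized antigens to the surface of B cells, dendritic cells and macrophages, where CD4+ T cells read them. The chains assemble with the invariant chain, encoded by *Cd74*, which blocks the groove and guides the complex to endosomes; proteases then trim it to a short remnant that the DM heterodimer exchanges for antigenic peptide, and DO binds DM and restrains it. Transcription of most of these genes depends on the class II transactivator, *Ciita*. It does not bind DNA itself but docks on factors bound at the X and Y boxes of promoters. In the GC, B cells present antigen captured by their receptor to follicular helper T cells and compete for their help.

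All 10 genes were lower in GC than in naive B cells. Each passed the threshold (adjusted p under 0.05, limma, Benjamini-Hochberg adjustment over all genes tested) and for each the highest GC pool lay below the lowest naive pool. Of all genes tested, 65.6% were called, 30.1% lower in GC cells and 35.5% higher, and the GC pools lay below all naive pools in 32.8% and above them in 37.8%. The median log2 fold change (GC minus naive, on log2(TPM + 1)) of the 10 genes was -0.88, against 0.03 over all genes tested, and 14.2% of these had a lower log2 fold change than -0.88. GC levels were between 39.6% (*H2-Oa*) and 65.7% (*H2-DMa*) of naive levels, so that the transcripts were reduced but abundant in both populations. Among the 1586 genes whose mean reached 100 TPM, a range that holds all 10, 34.0% were called lower, and 18.7% fell at least as far as *H2-DMa*, which had the smallest fall of the 10. In bulk RNA, fewer cells expressing a gene and less RNA per cell cannot be told apart, and TPM give the share of a pool's transcripts, not molecules per cell.

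**Figure D1:**
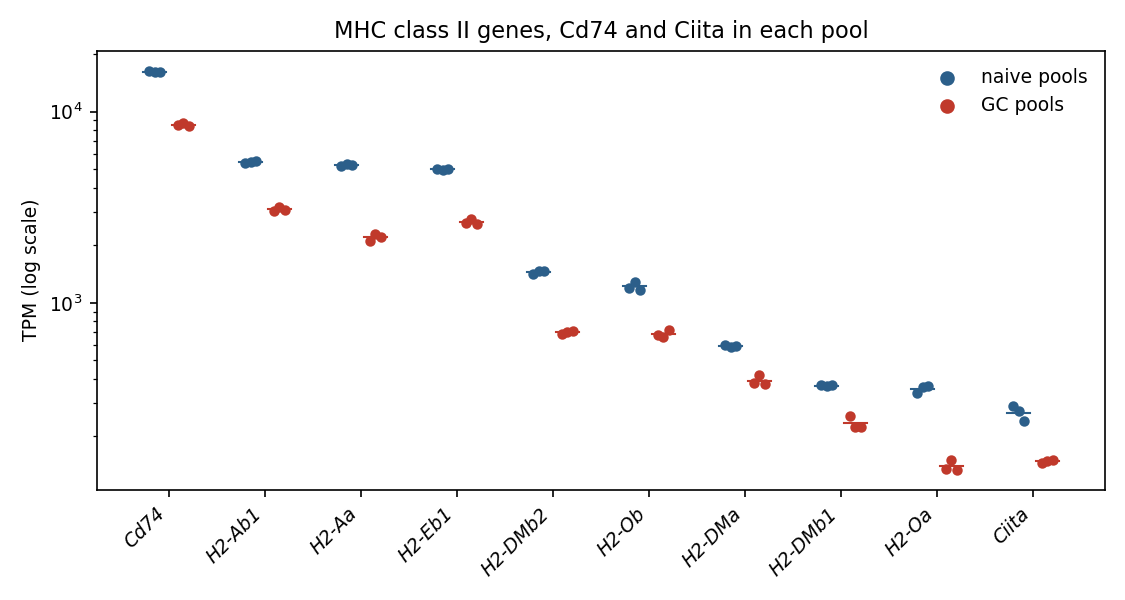
TPM (log scale) of the 10 genes in each of the 3 naive (blue) and 3 GC (red) pools, ordered by their naive level, with a short line at each mean. For all 10 genes the GC points lie below the naive points, from *Cd74* (8556 against 16224 TPM on average) down to *Ciita* (149 against 267 TPM).

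The X and Y boxes are short promoter sequences, and they are shown because *Ciita* is known to act through them; binding was not measured here. RefSeq promoter windows (GRCm38.p6, 250 bases before to 50 bases after the gene start) were given for 7 of the 10 genes, in 8 windows, since *H2-DMa* has 2 starts in the table; *H2-Ab1*, *Cd74* and *Ciita* had no entry. The letters TGATTGG were searched for the Y box and AACNNNTGATG, AACNNTGACG or AACNNNTGACG for the X box, on both strands, with an X match counted as paired when it was followed by a Y match after a gap of 10 to 30 bases. These letters were chosen after the promoters had been read, so the matches are a description. In the stretches of 60 bases below, which run 5′ to 3′ on the strand of the gene, capitals mark the X letters, where present, and then the Y letters.
H2-Aa: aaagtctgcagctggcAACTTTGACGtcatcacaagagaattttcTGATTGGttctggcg
H2-Eb1: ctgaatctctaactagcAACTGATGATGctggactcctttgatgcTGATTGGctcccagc
H2-DMb1: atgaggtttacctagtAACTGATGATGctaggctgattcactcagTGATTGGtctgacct
H2-DMb2: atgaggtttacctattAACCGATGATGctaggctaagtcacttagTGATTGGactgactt
H2-Ob: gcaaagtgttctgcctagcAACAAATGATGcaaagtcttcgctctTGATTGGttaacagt
H2-Oa: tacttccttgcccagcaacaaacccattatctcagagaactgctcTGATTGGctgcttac

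The stretches lie at chr17:34287859-34287918 on the minus strand for *H2-Aa* and, on the plus strand, at chr17:34305761-34305820 for *H2-Eb1*, chr17:34153083-34153142 for *H2-DMb1*, chr17:34145112-34145171 for *H2-DMb2*, chr17:34238801-34238860 for *H2-Ob* and chr17:34092289-34092348 for *H2-Oa*. In 5 genes (*H2-Aa*, *H2-Eb1*, *H2-DMb1*, *H2-DMb2* and *H2-Ob*) the X letters were followed by the Y letters, and the first letter of X lay 26 to 29 bases before the first letter of Y. The *H2-DMb1* and *H2-DMb2* stretches were identical at 53 of 60 positions. The window of *H2-Oa* held the Y letters alone, and neither window of *H2-DMa* held either set. Among all 32851 windows of the table, 7.82% held the Y letters, 1.2% the X letters, and 9 windows (0.0274%) the pair. The other 4 windows with the pair belonged to *Mcm10*, *Cic*, *1700048F04Rik* and *BC051142*, and that of *H2-Eb2*, a further class II beta chain gene, held the Y letters alone.

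**Figure D2:**
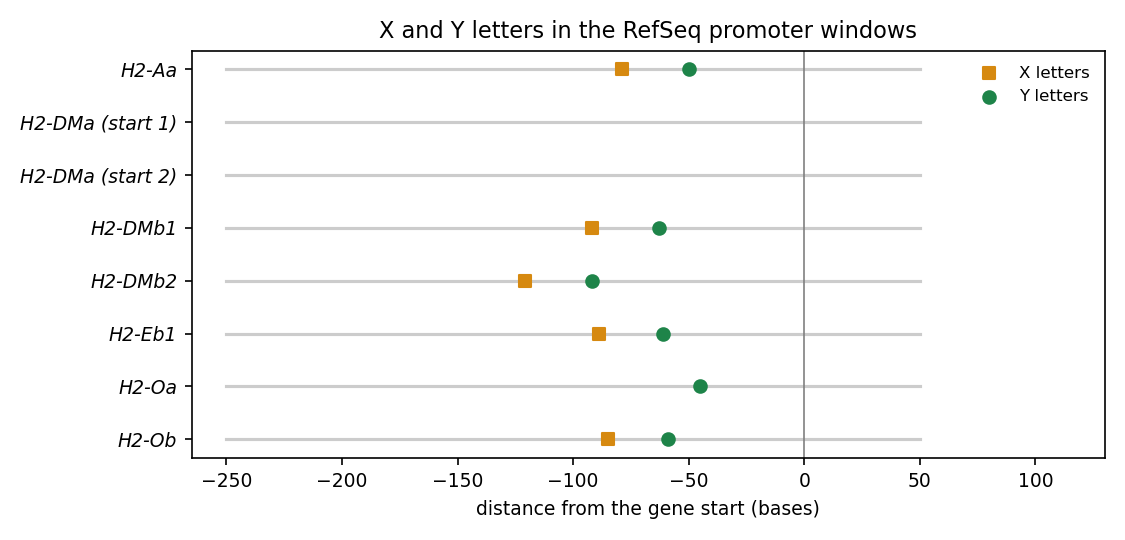
Position of the first base of the X letters (orange squares) and Y letters (green circles) in the 8 RefSeq promoter windows of 7 genes, in bases from the gene start (grey line at 0, negative values before the start). In the 5 genes with both, X starts 79 to 121 bases and Y 50 to 92 bases before the gene start.

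The classical chains are the peptide-presenting molecules themselves, I-A being formed by *H2-Aa* (alpha) and *H2-Ab1* (beta), while *H2-Eb1* encodes the beta chain of I-E. *H2-Aa* (chr17:34282744-34287823) measured 2109, 2288 and 2213 TPM in GC pools 1, 2 and 3 and 5177, 5300 and 5261 TPM in naive pools 1, 2 and 3. The naive pools were thus closely grouped and all far above the GC pools, with a log2 fold change of -1.25 ± 0.0413 (SE, n = 3 pools per population, limma adjusted p = 1.28e-06), a level 2.38-fold lower in GC cells. *H2-Ab1* (chr17:34263227-34269418) measured 3036, 3188 and 3047 TPM in GC pools and 5402, 5436 and 5555 TPM in naive pools. Its pools did not overlap either, but its fall was smaller (log2 fold change -0.82 ± 0.0366, limma adjusted p = 4.50e-06, 1.77-fold lower). *H2-Eb1* (chr17:34305867-34316674) measured 2623, 2734 and 2590 TPM in GC pools and 5009, 4953 and 5045 TPM in naive pools. It lay between the I-A chains in the size of its fall (log2 fold change -0.92 ± 0.0361, limma adjusted p = 2.63e-06, 1.89-fold lower). In naive cells *H2-Aa* and *H2-Ab1* ranked 15 and 14 among all genes by TPM in each pool, whereas in GC cells *H2-Aa* ranked between 55 and 63 and *H2-Ab1* between 24 and 27.

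The chains of I-A therefore did not fall in proportion. The ratio of *H2-Aa* to *H2-Ab1* TPM was 0.695, 0.718 and 0.726 in GC pools and 0.958, 0.975 and 0.947 in naive pools. All GC pools lay below all naive pools, with means of 0.713 ± 0.0164 and 0.960 ± 0.0139 (SD, n = 3, exact permutation test over the pools, two-sided, p = 0.1, the smallest that 3 against 3 allows; 0.15 after Benjamini-Hochberg adjustment over 6 ratios). A ratio within a pool does not depend on the scaling between pools. The order of the classical genes also differed: *H2-Aa* was above *H2-Eb1* in naive cells and below it in GC cells, with no overlap between the pools of both genes in either population. *H2-Eb2*, which is not among the 10 genes, was also lower in GC cells, at 147 to 153 against 305 to 325 TPM (log2 fold change -1.08, limma adjusted p = 2.75e-06). *H2-Ea*, the alpha chain of I-E, which C57BL/6 mice are known not to produce, was listed at 0.318 to 1.59 TPM over the 6 pools and was not tested.

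*Cd74* was the most abundant of the 10 genes in every pool. It measured 8561, 8705 and 8401 TPM in GC pools and 16391, 16076 and 16205 TPM in naive pools. It was the second most abundant gene of each naive pool and ranked between 4 and 6 in the GC pools, with a log2 fold change of -0.92 ± 0.0348 (SE, limma adjusted p = 2.21e-06, 1.9-fold lower). Relative to the classical chains, *H2-Eb1* included, it differed little. The ratio of *Cd74* to the summed classical chains was 1.10, 1.06 and 1.07 in GC pools and 1.05, 1.02 and 1.02 in naive pools. The GC pools were all slightly above the naive pools, by 4.35% between the geometric means (exact permutation p = 0.1, 0.15 adjusted over 6 ratios).

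DM, the peptide exchange factor, is formed by the alpha chain *H2-DMa* and 1 of the beta chains *H2-DMb1* and *H2-DMb2*. *H2-DMa* (chr17:34119693-34139101) measured 380, 417 and 375 TPM in GC pools and 604, 584 and 596 TPM in naive pools. These levels did not overlap and gave the smallest fall of the 10 genes (log2 fold change -0.61 ± 0.0503, limma adjusted p = 7.66e-05), although *H2-Ab1* fell least under quantile normalization and *H2-DMb1* without GC pool 2. *H2-DMb1* (chr17:34153191-34160229) measured 257, 223 and 224 TPM in GC pools and 370, 369 and 370 TPM in naive pools. GC pool 1 was higher than the others but below every naive pool (log2 fold change -0.66 ± 0.0620, limma adjusted p = 0.000138). *H2-DMb2* (chr17:34143229-34151553) measured 686, 705 and 713 TPM in GC pools and 1417, 1462 and 1472 TPM in naive pools. It fell further than the other DM chains (log2 fold change -1.05 ± 0.0351, limma adjusted p = 1.34e-06, 2.07-fold lower), and its share of the summed beta chains was 74.9% ± 1.88 in GC and 79.7% ± 0.327 in naive cells (SD, n = 3), with no overlap between pools. The division of reads between the beta chain genes is uncertain: 27.1% of the windows of 50 bases in the *H2-DMb1* transcript were also found in *H2-DMb2* transcripts, while the other 8 genes shared none with another of the 10 or with *H2-Eb2*. With both beta chains summed, the log2 fold change was -0.96. *H2-DMa* shares 3122 bases with *Brd2* on the opposite strand, and whether the counting used strand is not given in the sources used here.

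The ratio of *H2-DMa* to the summed beta chains was higher in GC cells, at 0.403, 0.449 and 0.401 against 0.338, 0.319 and 0.323 in naive pools. The means were 0.418 ± 0.0276 and 0.327 ± 0.00997 (SD, n = 3), and the pools did not overlap (exact permutation p = 0.1, 0.15 adjusted over 6 ratios).

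DO, formed by *H2-Oa* (alpha) and *H2-Ob* (beta), is made mainly in B cells and thymic epithelium. *H2-Oa* (chr17:34092379-34095234) measured 136, 151 and 134 TPM in GC pools and 337, 362 and 365 TPM in naive pools. It had the largest fall of the 10 genes (log2 fold change -1.33 ± 0.0624, limma adjusted p = 5.67e-06, 2.53-fold lower). All of its span is also covered by *BC051537*, a long noncoding RNA annotated on the opposite strand. *H2-Ob* (chr17:34238905-34245908) measured 680, 663 and 718 TPM in GC pools and 1203, 1279 and 1174 TPM in naive pools. It fell less (log2 fold change -0.83 ± 0.0497, limma adjusted p = 1.74e-05, 1.77-fold lower). The ratio of *H2-Oa* to *H2-Ob* was accordingly lower in GC cells, at 0.200, 0.228 and 0.187 against 0.280, 0.283 and 0.311, with no overlap (exact permutation p = 0.1, 0.15 adjusted). For both heterodimers together the ratio of DM to DO chains was 1.62, 1.65 and 1.54 in GC pools and 1.55, 1.47 and 1.58 in naive pools. These pools overlapped (exact permutation p = 0.3, 0.3 adjusted), and with 3 pools each a difference of this size, 4.47%, could not be told from the spread.

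*Ciita* (chr16:10480014-10531064) measured 146, 149 and 151 TPM in GC pools and 287, 272 and 241 TPM in naive pools. The naive pools varied more than those of any other of the 10 genes (coefficient of variation 8.89%), but the lowest was 1.59-fold above the highest GC pool. The log2 fold change was -0.84 ± 0.0697 (SE, limma adjusted p = 7.83e-05, 1.8-fold lower). The ratio of the summed classical chains to *Ciita* was 53.4, 55.3 and 51.8 in GC pools and 54.2, 57.7 and 65.8 in naive pools. These ranges overlapped (exact permutation p = 0.2, 0.24 adjusted), so that a change of the summed classical chains beyond that of *Ciita* was not detectable. Taken singly, the log2 ratio of *H2-Aa* to *Ciita* differed by -0.41 (GC minus naive), and its pools did not overlap. The ratios of *H2-Eb1* and of *H2-Ab1* to *Ciita* overlapped between populations. *Ciita* overlaps *Dexi* by 858 bases and a long noncoding RNA in the annotation.

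**Figure D3:**
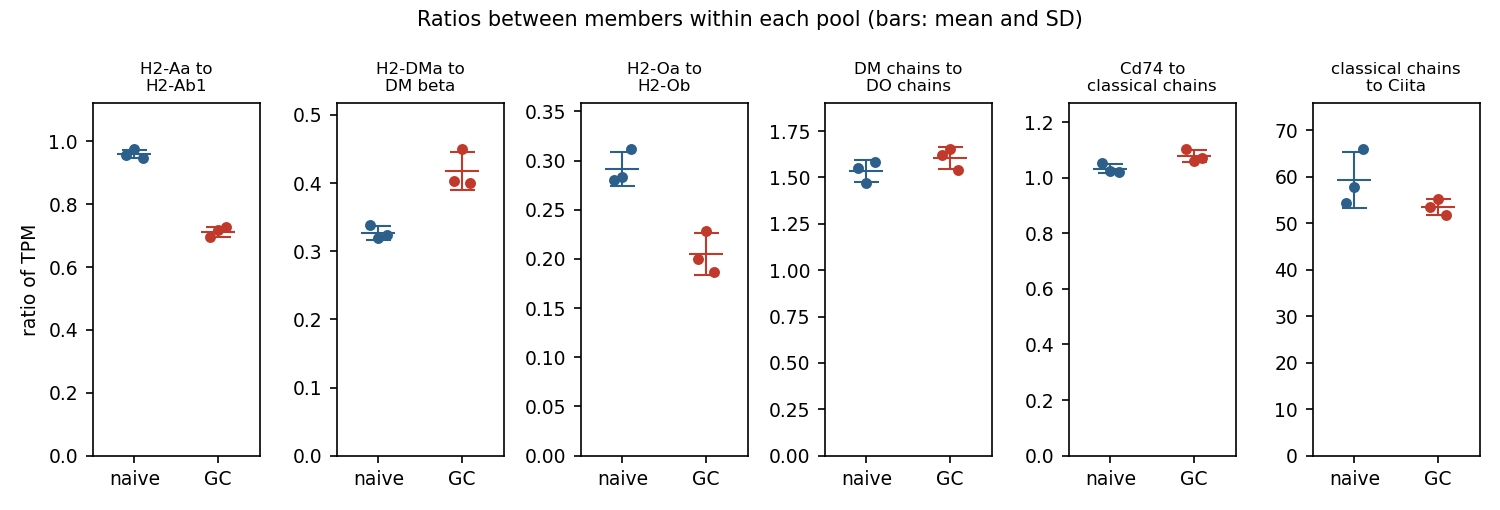
Ratios of TPM between the 10 genes within each naive (blue) and GC (red) pool, 1 panel per ratio with its own axis from 0; points are pools and bars the mean and SD (n = 3). The chain ratios *H2-Aa* to *H2-Ab1* (0.960 to 0.713 from naive to GC) and *H2-Oa* to *H2-Ob* (0.292 to 0.205) are lower in GC pools, *H2-DMa* to DM beta is higher (0.327 to 0.418), and the ratios of DM to DO and of classical chains to *Ciita* overlap.

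Together the 10 genes made up 3.62% ± 0.00959 of the transcripts of naive cells and 1.88% ± 0.0367 of those of GC cells (SD, n = 3). Their summed level was 18613, 19223 and 18565 TPM in GC pools and 36197, 36092 and 36283 TPM in naive pools, 1.93-fold lower in GC cells (exact permutation p = 0.1). By group, the sums were 1.98-fold lower for the classical chains, 1.9-fold for *Cd74*, 1.82-fold for DM and 1.9-fold for DO, and no sum overlapped between populations. In naive cells the order of levels was *Cd74*, *H2-Ab1*, *H2-Aa*, *H2-Eb1*, *H2-DMb2*, *H2-Ob*, *H2-DMa*, *H2-DMb1*, *H2-Oa* and *Ciita*, and the pools of no 2 neighbours overlapped. In GC cells *H2-DMb2* and *H2-Ob* overlapped, as did *Ciita* and *H2-Oa*, and the other neighbours were apart. By the size of the fall in the fit as reported the order was *H2-Oa*, *H2-Aa*, *H2-DMb2*, *Cd74*, *H2-Eb1*, *Ciita*, *H2-Ob*, *H2-Ab1*, *H2-DMb1* and *H2-DMa*. Of the 9 pairs of neighbours in that order, 6 had ratios that overlapped between populations; *H2-Aa* and *H2-DMb2*, *H2-DMb2* and *Cd74*, and *H2-Ab1* and *H2-DMb1* were apart.

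The other genes of the pathway were read from lists by role. Beside the counts of each list that follows, 30.1% of all genes tested were called lower in GC cells and 35.5% higher. No list was tested against these shares. Of the 7 genes for factors that bind the class II promoters with *Ciita*, 1 fell, 2 rose and 4 did not pass the test, with a median log2 fold change of 0.09. *Rfx5*, the X box factor, was at 71.5 to 85.9 TPM in GC and 76.1 to 88.1 TPM in naive pools (log2 fold change -0.07, limma adjusted p = 0.486). *Nfya*, a subunit of the Y box factor, fell by 0.33 on the log2 scale (limma adjusted p = 0.00545), whereas its partner *Nfyb* rose by 0.36 (limma adjusted p = 0.0135) and *Rfxank*, a partner of *Rfx5*, by 0.32 (limma adjusted p = 0.0161). Of 5 coactivators that *Ciita* recruits, 3 rose and none fell: the chromatin remodeler *Smarca4* by 1.60, *Ncoa1* by 0.92 and the acetyltransferase *Kat2b* by 0.52 on the log2 scale (limma adjusted p = 2.59e-06, 6.48e-05 and 0.0356). The acetyltransferases *Crebbp* (log2 fold change -0.17) and *Ep300* (0.04) did not pass the test.

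Of 7 factors known to act on *Ciita* transcription, 4 fell, 1 rose and 2 did not pass the test. *Irf4* was at 21.2 to 22.1 TPM in GC and 70.1 to 79.6 TPM in naive pools (log2 fold change -1.76, limma adjusted p = 2.49e-06). The interferon-response factor *Irf1* (log2 fold change -1.49, limma adjusted p = 7.57e-06) and the B cell factor *Pax5* (-0.31, limma adjusted p = 0.0192) were also lower. *Prdm1*, which encodes Blimp-1, a repressor of *Ciita* in plasma cells, rose, at 4.69 to 5.22 TPM in GC and 0.862 to 1.07 TPM in naive pools (log2 fold change 1.62, limma adjusted p = 3.77e-05). It passed the filter on low values only through the GC pools. *Spi1* (log2 fold change 0.19, limma adjusted p = 0.0699) and *Irf8* (-0.11, limma adjusted p = 0.0732), which encode the partners PU.1 and IRF8, did not pass the test.

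Downstream, 7 of 8 genes for processing of the invariant chain and of antigen fell and none rose, with a median log2 fold change of -0.63. The least abundant of these genes passed the filter on low values only through the naive pools. *Ctss*, the main protease of the last steps of invariant chain cleavage in B cells, was at 166, 182 and 167 TPM in GC pools and 528, 526 and 571 TPM in naive pools. This fall (log2 fold change -1.65, limma adjusted p = 1.36e-06) was larger than that of each of the 10 class II, *Cd74* and *Ciita* genes, though the difference between the falls was not tested. *Ifi30*, the thiol reductase that opens disulfides of antigens, fell by 1.12 on the log2 scale, *Ctsh* by 0.55 and *Sppl2a*, which cleaves the membrane remnant of the invariant chain, by 0.56 (limma adjusted p = 1.65e-05, 1.37e-05 and 0.00203). *Lgmn*, an asparaginyl endopeptidase, was at 107 to 113 TPM in GC and 106 to 111 TPM in naive pools (limma adjusted p = 0.554). Of the 3 genes that act on the turnover of surface class II molecules, *Cd83* and the ligase *March1* fell. *Cd83*, which protects class II molecules from ubiquitination, fell by 1.17 and *March1* by 0.22 on the log2 scale (limma adjusted p = 4.10e-06 and 0.0438). The ligase *March8* rose by 1.69, at 5.39 to 6.26 TPM in GC and 0.378 to 1.77 TPM in naive pools (limma adjusted p = 0.00184). *March8* passed the filter on low values only through the GC pools. Of 5 ligands and signalling partners of surface CD74, 3 rose and none fell: the ligands *Mif* and *Ddt* by 0.89 and 1.18 and the coreceptor *Cd44* by 1.22 on the log2 scale, while *Cxcr4* was at 347 to 362 TPM in GC and 312 to 399 TPM in naive pools.

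The class I pathway, which presents peptides to CD8+ T cells and has its own transactivator, *Nlrc5*, was read for comparison. Of 10 class I genes measured, 6 fell, 1 rose and 3 did not pass the test, with a median log2 fold change of -0.94. The class I molecules themselves fell further than the class II chains on the log2 scale: *B2m* by 2.26, *H2-K1* by 2.03 and *H2-D1* by 1.87, beside *Nlrc5* by 1.92 (limma adjusted p = 3.26e-07, 1.21e-07, 3.74e-07 and 7.81e-05). The proteasome subunit *Psmb8* rose by 0.36 (limma adjusted p = 0.000855). The difference between the class I and class II falls was not tested.

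**Figure D4:**
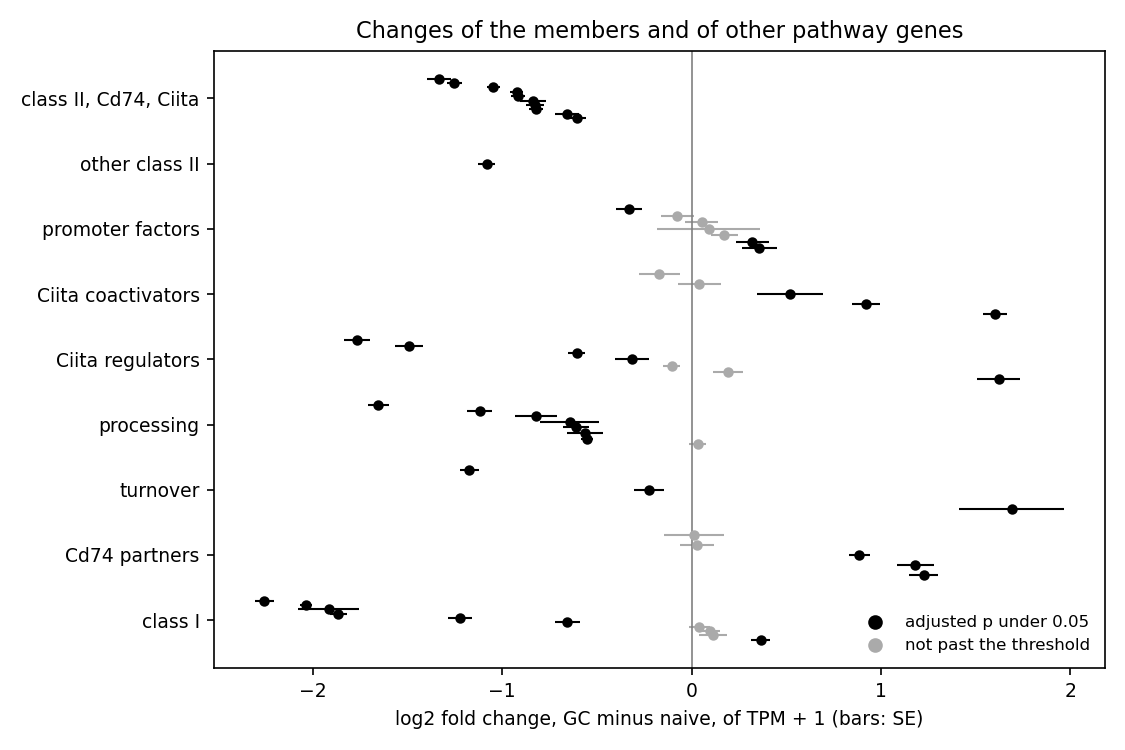
Log2 fold change (GC minus naive) of the 10 genes and of the listed pathway genes, 1 row per list, with SE bars; black points passed an adjusted p under 0.05 and grey points did not. The 10 genes lie between -1.33 and -0.61, 7 of the 8 processing genes are called lower, and the coactivators and *Cd74* partners have no point called lower.

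Of the 10 genes, 8 lie on chromosome 17 with starts within 213 kb, while *Ciita* is on chromosome 16 and *Cd74* on chromosome 18. Between *H2-Oa* and *H2-Eb1*, which bound this stretch, lie 4 other listed genes that are not class II genes, and they did not all move the same way. *Brd2*, a bromodomain gene, rose by 0.34 and *Psmb8* by 0.36 on the log2 scale, *Tap1*, a peptide transporter subunit, fell by 0.66, and *Tap2* was not called (log2 fold change 0.10, limma adjusted p = 0.135). Beyond *H2-Eb2*, the butyrophilin-like gene *Btnl2* rose by 2.38 on the log2 scale, at 72.1 to 77.5 TPM in GC and 12.2 to 14.3 TPM in naive pools (limma adjusted p = 1.25e-06). Over the 12 other genes measured in or beside the class II region, 3 rose, 6 fell and 3 did not pass the test. Of all genes tested, 35.5% were called higher and 30.1% lower. *Notch4*, which fell, passed the filter on low values only with the naive pools. *Tap1*, *Tap2*, *Tapbp* and *Psmb8* are also in the class I list.

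**Figure D5:**
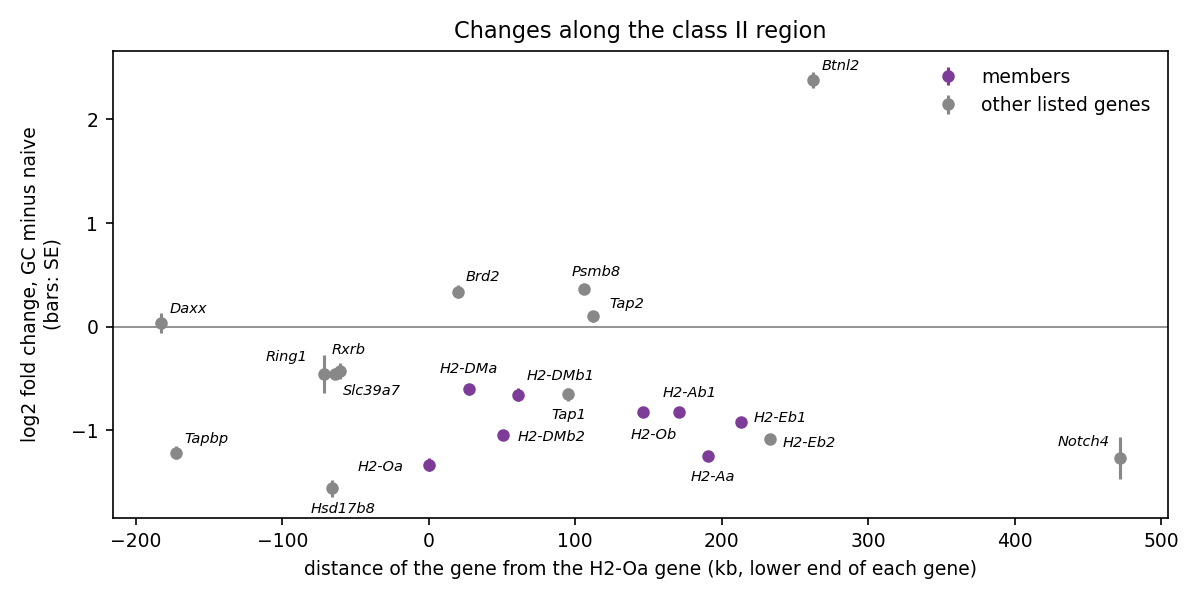
Log2 fold change (GC minus naive, SE bars) against the distance of each gene from *H2-Oa* on chromosome 17, in kb; purple points are the 8 class II genes of the set and grey points the other listed genes. The purple points are all below 0 (-1.33 to -0.61), whereas *Brd2* (0.34) and *Psmb8* (0.36) lie above 0 between them.

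The populations matched their labels by their defining markers. The GC markers *Fas*, *Bcl6*, *Mki67* and *S1pr2* were all called higher in GC pools. The naive markers *Ccr7*, *Klf2*, *Fcer2a*, *Cd38* and *Gpr183* were all called lower. *Fas* was part of the sort itself, so its call is no separate evidence of identity. *Mki67* and *S1pr2* passed the filter on low values only through the GC pools, and *Ccr7* only with the naive pools. Estimated depth was 10000000 to 10900000 reads in GC and 9700000 to 16100000 reads in naive pools. Other B cell genes also fell, *Cd79a* by 1.12 and *Cd22* by 0.64 on the log2 scale, while *Ms4a1* rose by 0.38. Dendritic cells and macrophages express class II genes strongly: the 13 markers of these cells other than *Flt3* summed to 3.93 to 4.6 TPM in GC and 6.15 to 9.34 TPM in naive pools, none was above 5.28 TPM, *Clec9a*, *Cd14* and *Cd209a* were at 0 in all GC pools, and *Flt3* was at 29.6 to 32.9 TPM in GC and 1.01 to 1.40 TPM in naive pools. No T cell marker was above 1.83 TPM. The 10 epithelial markers summed to 53.8 to 116 TPM in GC and 133 to 170 TPM in naive pools. Of the 9 tested, 5 were called lower in GC cells, 2 higher and 2 not called. *Lgr5*, which was called higher, passed the filter on low values only through the GC pools. Of 5 plasma cell markers tested, 3 rose and 2 fell. *Jchain* was at 656 to 693 TPM in GC and 22.1 to 40.3 TPM in naive pools. *Sdc1*, which fell, was at or below 3.66 TPM in every pool and passed the filter on low values only with the naive pools. *Prdm1*, which rose, passed the filter only through the GC pools. Of 3 stromal and endothelial markers tested, *Cr2*, which B cells also express, and *Pecam1* fell and *Mfge8* rose. The part of these other cell types in the class II levels was not tested.

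Across the 6 pools, many genes had a pattern like that of *Ciita* or *Cd74*. Log2(TPM + 1) of the same 3 GC and 3 naive libraries was used, for 8495 genes whose mean reached 10 TPM. Of these, 1513 had a Pearson r of at least 0.95 with *Ciita* and 1521 with *Cd74*. With 3 pools on each side of a difference between the populations, such an r mainly restates that difference. A link to *Ciita* or *Cd74* beyond it was not tested. The closest to *Ciita* were *Foxk1*, *Rab33b*, *Tagap* and *Pigt* and the unnamed ENSMUSG00000094621 (r between 0.9992 and 0.9999). The closest to *Cd74* were *Gdf11*, *Cobll1*, *Itm2b*, *Calhm2* and *Fxyd5* (r between 0.9997 and 0.9999). Their levels differed in size of change from *Cd74*: *Itm2b* averaged 43.8 TPM in GC and 275 TPM in naive cells. *Gdf11* (0.517 and 26.7 TPM), *Cobll1* (0.272 and 34.8 TPM), *Calhm2* (3.38 and 44.0 TPM) and *Fxyd5* (8.66 and 174 TPM) reached the mean of 10 TPM only through the naive pools. Among the genes closest to *Ciita*, so did *Rab33b* (8.21 and 14.9 TPM) and *Tagap* (9.90 and 25.5 TPM).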

How the data were processed

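RNA-Seq libraries of 3 GC and 3 naive pools were made by the authors with the NEBNext Ultra kit and sequenced on an Illumina HiSeq; adapters were removed with cutadapt 1.9, and reads were assigned to the mouse transcriptome (NCBIm38, Ensembl 75) with RSEM 1.2.25, with a mean fragment length of 180 and SD of 50. The authors deposited FPKM per gene and pool, with 2 decimals. The sample records also name edgeR among the processing tools, and whether it scaled values between pools is not known here. FPKM were divided by their pool's sum (717537 to 774597) and multiplied to TPM. RSEM divides reads shared by similar genes, so *H2-DMb1* and *H2-DMb2* are less certain.

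The 12785 genes that reached 1 TPM in 3 or more pools were tested on log2(TPM + 1), pseudocount 1, with limma 3.58.1. The fit used lmFit and eBayes with a trend, two-sided, in R 4.3.3, at a Benjamini-Hochberg adjusted p under 0.05. A fold on this scale understates changes of genes that are low in a population, and not always slightly. The *Prdm1* GC mean was 5.25-fold its naive mean in TPM, at a log2 fold change of 1.62. Fold values in words are ratios of mean TPM. Ratios and sums were compared with exact permutation tests over pools. Python 3.11.15 with numpy 2.4.6, pandas 2.3.3, scipy 1.17.1 and matplotlib 3.10.9 did the rest. Sequencing depth was inferred from the spacing of low FPKM in genes with 1 transcript; 74.9% to 78.0% of these values lay within 0.15 of whole reads, so depth is approximate and no count test was run. On simulated data for this comparison (12785 genes, 200 changed by a log2 fold change of 1), limma recovered 82.0% of the changed genes with 4.65% false calls, and called 0 genes where none was changed.

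Symbols came from GENCODE M1 (NCBIM37; 33398 of 39179 identifiers), coordinates and promoters from RefSeq GRCm38.p6, and shared transcript windows from GENCODE M1. *Psmb9* and *Ighd* matched no identifier. Some listed genes are not reported here. All 10 genes, every listed pathway gene or marker, and the 5 genes most correlated with *Ciita* and with *Cd74* could be named. The members and lists were chosen with earlier results of these data known. Replicates are separate pools of mice. Same-numbered pools are not stated to share mice, and the comparison was made without pairing. Alternatives covered the pseudocount, filters, FPKM, quantile and median-of-ratios scaling, the replicate block, eBayes without a trend, summed DM beta genes, and leaving out each pool.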

Additional observations from a re-analysis of the deposited data

How the results depend on the processing

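Over 280 alternatives for 25 results (the fold changes of the 10 genes, counts of calls, ratios and sums), fold changes, ratios and sums kept their direction, fold changes stayed past the threshold, and between 2758 and 4450 genes were called lower and between 3522 and 4734 higher. For the 10 genes, log2 fold changes ranged from -1.47 to -0.58 over 142 alternatives, with a highest limma adjusted p of 0.00126, for *H2-DMa* under the replicate block. The order of the falls was less stable: *H2-Oa* had the largest in each fit of all 10 genes, but the smallest was that of *H2-Ab1* under quantile normalization (-0.70, against -0.73 for *H2-DMa*) and of *H2-DMb1* without GC pool 2 (-0.62, against -0.65), and the cause was not tested. Leaving out each pool in turn moved *Ciita* between -0.91 and -0.78 and *H2-DMb1* between -0.72 and -0.62. With the replicate number as a block, *H2-DMa* kept its log2 fold change of -0.61, all 10 genes were called lower, and 3618 genes in all were called lower and 4342 higher, against 3852 and 4540 without it; deviations of same-numbered pools correlated at 0.0225 to 0.0830, and 5 of 6 pools correlated best with the pool of their own number. Ratios within pools cannot pass the threshold with 3 pools a side, so their stability was seen only in their direction. The deposited values hold no counts, and depth and counting error are known only approximately.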

Other observations

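Of the 4 genes outside the class II set whose RefSeq promoter window held the X letters followed by the Y letters, 3 had a matched expression value; their changes were not tested against those of the class II genes. *Mcm10*, a DNA replication factor, was at 65.1, 62.0 and 67.6 TPM in GC pools and 0.365, 0.356 and 0.684 TPM in naive pools, a log2 fold change of 5.49 ± 0.116 (SE, limma adjusted p = 2.81e-07), and passed the filter on low values only through the GC pools. Its X and Y letters lay on the strand opposite to the gene. *Cic*, a transcriptional repressor with the letters also on the opposite strand, was at 185 to 248 TPM in GC and 175 to 201 TPM in naive pools (log2 fold change 0.25, limma adjusted p = 0.1001). *BC051142*, which lies on chromosome 17 beside the class II genes, was at 6.71 to 10.004 TPM in GC and 7.97 to 13.1 TPM in naive pools (log2 fold change -0.19 ± 0.212, limma adjusted p = 0.468).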
